A study of Mus musculus with 7 samples.

Results

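The erythroid programme was examined in RNA sequencing of long-term haematopoietic stem cells (LT-HSCs), through 34 listed genes of haemoglobin, heme synthesis, iron handling and the red cell membrane. The genes were taken from a list of names, and 33 of the 34 were found among the 53458 genes of the annotation. Ahsp, which encodes the chaperone of free alpha globin, was not analysed here. All 33 passed the filter on low counts that left 20314 genes for testing. The list held 4 globin genes, 3 regulators and receptors (Gata1, Klf1, Epor), 7 enzymes of heme synthesis, 4 genes of iron and heme transport and 1 enzyme of heme breakdown (Blvrb). It also held 10 genes of the membrane and its skeleton, 3 other enzymes (Car1, Car2, Bpgm) and Hemgn, a nuclear protein of haematopoietic cells.

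The series compared LT-HSCs from the marrow of 4 wild-type (WT, Srp72+/+) and 3 heterozygous (Srp72+/-) mice, all aged and of the C57/BL6 strain, with 1 library per mouse. Srp72 encodes a protein of the signal recognition particle, which brings ribosomes making secreted and membrane proteins to the endoplasmic reticulum. The sources used here give neither the ages nor how the Srp72 allele was made. Cells were sorted as negative for Ter119 (a red cell antigen), B220, CD3, Mac1, Gr1, Flt3 and CD48 and positive for Sca1, cKit and CD150, so the gate was set to leave out cells with the mature erythroid antigen.

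Red cells arise from stem cells through progenitors that first use Gata1, Klf1 and the erythropoietin receptor, and later fill with haemoglobin. Heme is built from glycine and succinyl-CoA by a chain of enzymes that starts with ALAS2 in erythroid cells and ends with FECH, which inserts the iron. Iron enters through the transferrin receptor (Tfrc) and reaches the mitochondrion through mitoferrin 1 (Slc25a37). Haemoglobin pairs alpha chains with beta chains, and in adult C57BL/6 mice these come from Hba-a1 and Hba-a2 and from Hbb-bs and Hbb-bt. Stem cells themselves are not known for globin synthesis.

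The libraries held between 18054322 and 35247472 estimated reads. Levels are in CPM, a count scaled for library size and composition. Srp72 itself stood at 99.6, 137, 103 and 88.4 CPM in the WT libraries in order, against 71.9, 45.7 and 109.8 CPM in the Srp72+/- ones. The groups overlapped, with Srp72+/- 3 higher than all WT libraries but WT 2, and the part of the gene that is altered is not known here. WT 2 stood apart from its group in genes outside the erythroid list. The summed level of 12 stem cell genes (such as Procr, Hlf and Slamf1) was 166 CPM in WT 2, while the other 6 libraries held 1338 to 2705 CPM. The summed level of 10 neutrophil genes was 40048 CPM in WT 2, 12571 CPM in Srp72+/- 1 and between 124 and 8823 CPM in the other 5. The members are described with all 7 libraries and also without WT 2, without Srp72+/- 1 or without both. This choice of libraries was made with earlier results of these data known.

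Between the genotypes, 0 of the 33 erythroid genes passed the test with all 7 libraries. The test was edgeR's quasi-likelihood test with Benjamini-Hochberg adjustment over all 20314 genes at a false discovery rate (FDR) of 0.05. Over all tested genes 0 passed as well (0%), each member had an adjusted p of 0.9998, and DESeq2 called 9 genes (0.0443%), with 0 members among them. At an unadjusted edgeR p below 0.05 there was 1 member, Epor, where 205 of all genes reached that level in the same direction (1.01%) and 1.8% did in either. The groups overlapped in each of the 33 genes, where 3.57% of all tested genes had groups that did not overlap. Fitted values were higher in Srp72+/- for 29 members and lower for 4 (Klf1, Cpox, Fech and Bpgm), where 49.3% of all genes had higher fitted values. The median log2 fold change of the members was 0.28, against -0.0067 for all genes. In bulk RNA, fewer cells of a type and less RNA per cell cannot be told apart.

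**Figure D1:**
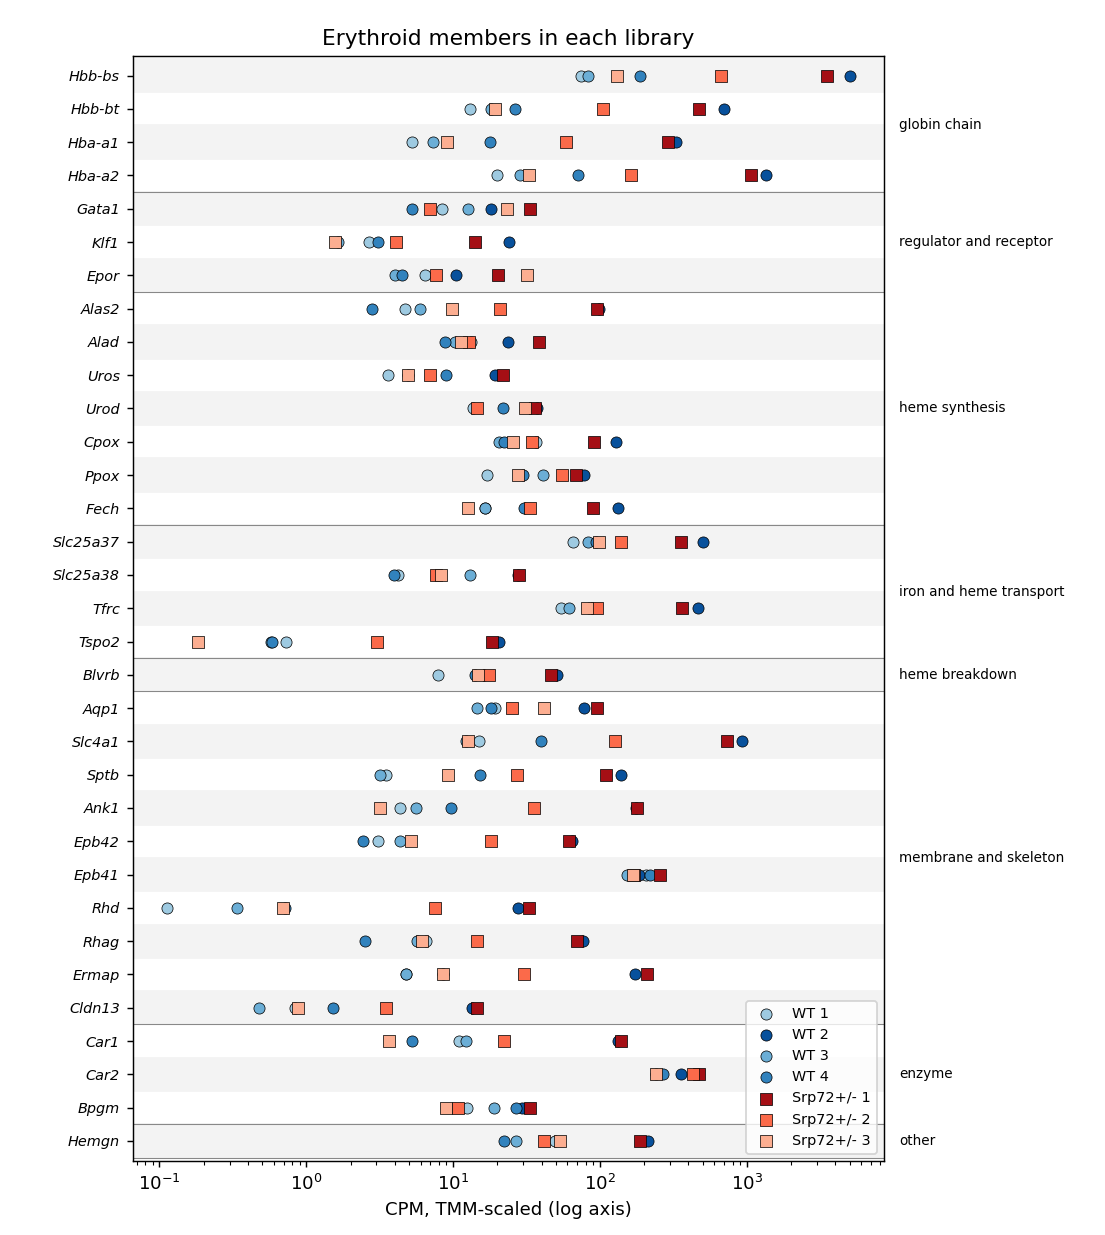
CPM (log axis) of each of the 33 genes in each library, grouped by role, with circles for WT and squares for Srp72+/- libraries. WT 2 and Srp72+/- 1 lie at the right of most rows, and Srp72+/- 2 lies between them and the other 4 libraries in many rows.

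The members differed widely between mice of the same genotype. WT 2 was the highest WT library for 31 of the 33 genes, which is so for 33.2% of all tested genes. Srp72+/- 1 was the highest Srp72+/- library for 32, against 32.6% of all genes. Both held for 30, against 16.4%. The exceptions were Car2, highest in WT 1, Epb41, highest in WT 4, and Epor, highest in Srp72+/- 3. The highest WT library was more than 10 times the lowest for 15 of the 32 members with at least 3 reads in each WT library, where 8.92% of all such genes were that far apart. In Srp72+/- the same was so for 14 of 33 members, against 3.83% of such genes. This ordering of the libraries was known when the genes were listed, so it is given as a description.

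The remaining libraries could be ordered too. Against WT 1, WT 3 and WT 4, a set picked after the values were seen, Srp72+/- 1 lay above all of them for 33 members (29.3% of all genes). Srp72+/- 2 lay above all of them for 23 members (25.1%), of which 11 belong to the 13 late genes defined below. Srp72+/- 3 did so for 7 members (30.1%), which is near the background. Srp72+/- 3 was the lowest Srp72+/- library for 27 members and Srp72+/- 2 for the other 6.

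The genotype difference of the members turned with these libraries. Without WT 2, 32 of 33 members had higher fitted values in Srp72+/- (53.1% of all genes, with 46.9% lower), with a median log2 fold change of 1.65 against 0.04 for all genes. An unadjusted edgeR p below 0.05 was then reached by 17 members, all higher, where 2.61% of 19856 genes were higher at that level, 2.23% lower and 4.84% either. They were Epor, Aqp1, Alas2, Epb42, Rhd, Rhag, Ermap, Cldn13, Sptb, Ank1, Slc25a37, Tfrc, Tspo2, Hemgn, Hbb-bs, Hbb-bt and Hba-a1. None passed after adjustment over all genes (edgeR, smallest adjusted p of a member 0.977), and 0% of all genes passed. Without Srp72+/- 1 the direction was the opposite, with 30 members lower and 3 higher (52.2% of all genes lower, 47.8% higher) and a median of -0.91. At an unadjusted p below 0.05 there were then 1 higher (Epor; 1.15% of 21528 genes) and 1 lower (Bpgm; 0.887%), where 2.04% of all genes reached that level in either direction. Without both libraries 30 members were higher (51.3% of all genes), with a median of 0.78. Then 8 members were higher at an unadjusted p below 0.05 (Alas2, Epor, Rhd, Epb42, Ermap, Aqp1, Hbb-bt and Hbb-bs; 2.11% of 21073 genes) and 1 was lower (Bpgm; 1.92%), with 0 past the FDR.

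**Figure D2:**
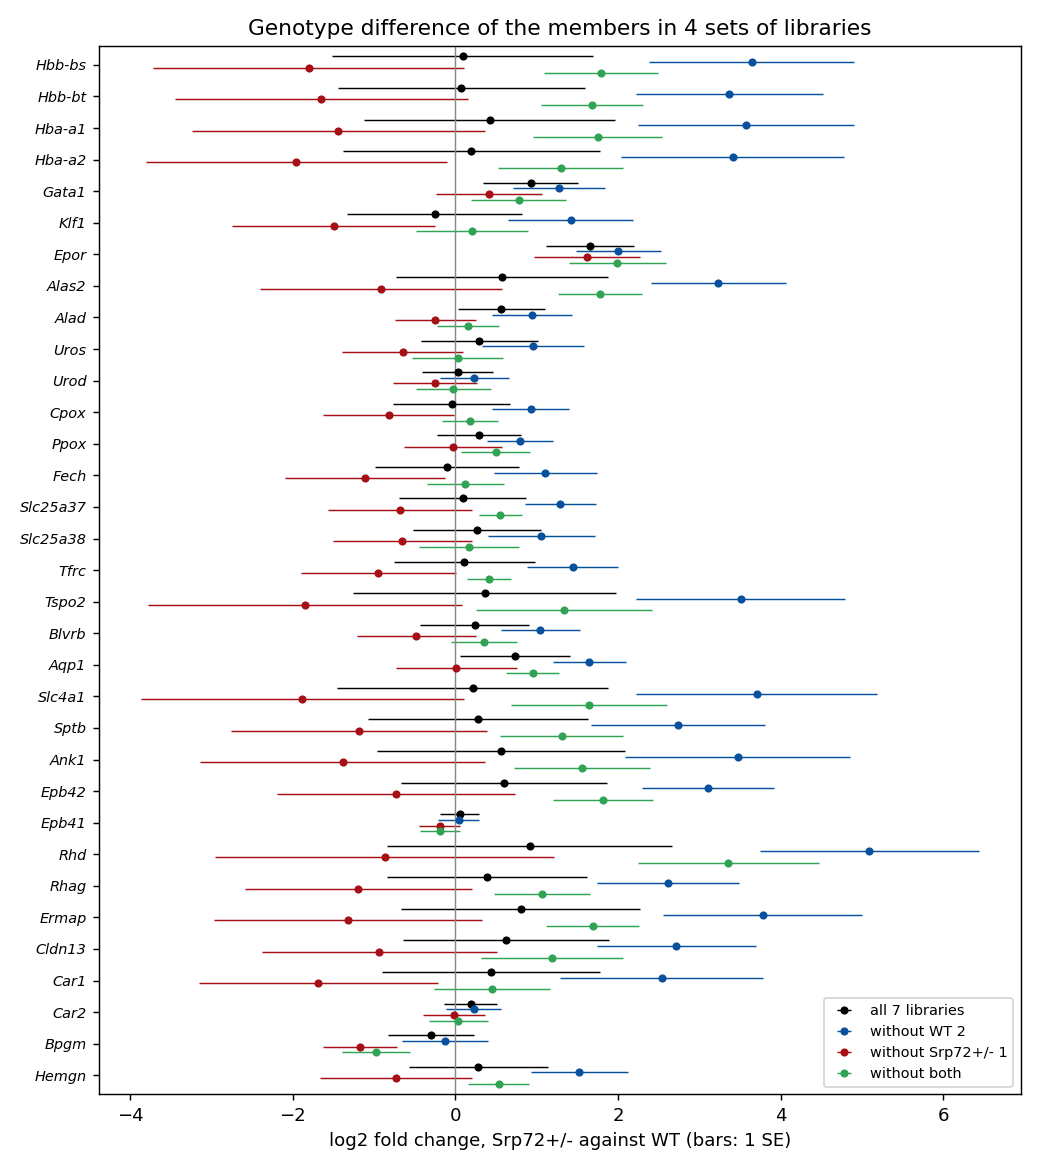
Log2 fold change of each member, Srp72+/- against WT, with bars of 1 standard error (SE), for all 7 libraries and without WT 2, without Srp72+/- 1 or without both. Most genes sit near 0 with all libraries, to the right without WT 2 and to the left without Srp72+/- 1, while Epor stays at the right in all 4 sets.

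Summed markers of several other blood cells moved with the same libraries, though not every gene did. In the order WT 1 to WT 4, the summed neutrophil genes were at 124, 40048, 8823 and 2886 CPM, and in Srp72+/- 1 to Srp72+/- 3 at 12571, 5395 and 1185 CPM, with all 10 genes above 3 reads in each library. The 10 B cell genes summed to 57.5, 10287, 721 and 798 CPM in the WT libraries, against 4229, 1297 and 242 CPM in the Srp72+/- ones. In WT 2 all 10 B cell genes were above 3 reads and in Srp72+/- 1 there were 9. Pax5 was at 0 in WT 1 and WT 3. Most of the WT 2 sum came from Igkc, at 7347 CPM, with Ighm at 2883 CPM. Srp72+/- 1 likewise had Igkc at 3043 CPM, with Ighm at 1155 CPM. Cd79b was instead lowest of its group in WT 2 (3.77 CPM, next 7.53 CPM) as well as Srp72+/- 1 (7.78 CPM, next 11.2 CPM). Vpreb1, though highest in WT 2 within WT, was slightly lower in Srp72+/- 1 (0.371 CPM) than Srp72+/- 2 (0.402 CPM). The rest of the B cell genes each peaked in WT 2 within WT and Srp72+/- 1 within Srp72+/-. The sum of the 8 monocyte and macrophage genes ran from 159 to 3463 CPM in WT and from 327 to 1703 CPM in Srp72+/-. WT 2 and Srp72+/- 1 had the highest sums of their groups, and most of each was Lyz2 (3128 and 1557 CPM). The 6 genes above 3 reads in Srp72+/- 1, Lyz2 among them, were each highest there within Srp72+/-. C1qa and C1qb went the other way, with their lowest Srp72+/- values in that library (0.159 CPM each, not above 3 reads). Their highest were in Srp72+/- 3, with C1qb reaching 7.07 CPM. The sum of the 6 proliferation genes was highest in the same libraries. It was 3268 CPM in WT 2 (549.6 to 919 CPM in the other WT) and 2092 CPM in Srp72+/- 1 (963 and 1733 CPM in the other Srp72+/-). Each gene was highest in WT 2 within WT. Within Srp72+/-, Mki67 (1445 CPM, most of the Srp72+/- 1 sum), Ccnb1 and Birc5 were highest in Srp72+/- 1. Top2a (478 against 437 CPM), Cdk1 and Aurkb were higher in Srp72+/- 3. The sum of the 8 T and NK cell genes ran from 42.9 to 199 CPM and was highest in WT 2. Nkg7 was at 176 CPM in WT 2 (18.7 to 23.2 CPM in the other WT) and highest in Srp72+/- 3 within Srp72+/- (84.5 CPM). Klrb1c went the other way in WT 2, at 6.27 CPM against 22.7 to 52.2 CPM. The other genes were at or below 5.37 CPM in each library. The sum of 10 megakaryocyte genes went the other way in WT 2, at 65.4 CPM against 461 to 825 CPM in the other WT, and ran from 532 CPM (Srp72+/- 1) to 1427 CPM (Srp72+/- 3) in Srp72+/-. The neutrophil order was not quite the erythroid order, since WT 3 was second among WT in neutrophil genes while WT 4 was second in all 4 globin genes. The part of these cells in the erythroid values was not tested.

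The globin genes had the highest median range of any role, and the ranges are given with each gene. Hbb-bs, the main adult beta globin gene (chromosome 7, 103826534 to 103828096, minus strand, GRCm38), measured 74.0, 5021, 83.2 and 186 CPM in WT 1 to WT 4, against 3489.8, 661 and 129.7 CPM in the Srp72+/- libraries in order. WT 2 and Srp72+/- 1 were thus high, Srp72+/- 2 was intermediate and the other 4 were low, with overlapping groups. The means were 1341 ± 2454 CPM (SD, n = 4) and 1427 ± 1806 CPM (SD, n = 3), and the SDs exceeded the means. The log2 fold change was 0.09 with an SE of 1.60 (edgeR, unadjusted p = 0.957). It was 3.65 (SE 1.26) without WT 2, -1.80 (SE 1.91) without Srp72+/- 1 and 1.79 (SE 0.70) without both.

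Hbb-bt, the minor adult beta gene (chromosome 7, 103812524 to 103813996, minus strand), followed at 13.1, 695, 18.1 and 26.3 CPM in the WT libraries, against 469.8, 104 and 19.4 CPM in the Srp72+/- ones. Of the alpha globin genes on chromosome 11, Hba-a2 (32296489 to 32297298, plus strand) measured 19.8, 1351, 28.5 and 70.8 CPM in the WT libraries, against 1069, 162 and 32.9 CPM in the Srp72+/- ones. Hba-a1 (32283511 to 32284465, plus strand) measured 5.21, 327, 7.29 and 17.7 CPM in the WT libraries, against 292, 58.9 and 9.13 CPM in the Srp72+/- ones. The order of the WT libraries was the same in all 4 genes, as was that of the Srp72+/- libraries. Their log2 fold changes with all libraries were between 0.07 (Hbb-bt) and 0.42 (Hba-a1), and without WT 2 between 3.37 (Hbb-bt) and 3.65 (Hbb-bs). Without Srp72+/- 1 they had the opposite sign, between -1.96 (Hba-a2) and -1.44 (Hba-a1), and without both libraries they were between 1.29 (Hba-a2) and 1.79 (Hbb-bs). The highest WT library was 53.0 to 68.3 times the lowest, and the highest Srp72+/- library 24.2 to 32.5 times the lowest.

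As a share of all reads, the 4 globin genes took 0.0111%, 0.625%, 0.0145% and 0.0306% in WT 1 to WT 4 and 0.547%, 0.112% and 0.0179% in Srp72+/- 1 to Srp72+/- 3. Their part of the reads on all 33 members ran from 9.57% in WT 1 to 63.6% in WT 2, and from 16.8% in Srp72+/- 3 to 57.7% in Srp72+/- 1. In TPM, which allows for transcript length, Hbb-bs had the highest value of the 33 members in each library, from 167 TPM in WT 1 to 8533 TPM in Srp72+/- 1. The order of the leading pair of libraries depended on the unit. Srp72+/- 1 lay above WT 2 for 14 of 33 members in CPM (51.7% of all tested genes) and for 32 of 33 in TPM (79.0% of all tested genes).

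While the level varied, the composition of the globin reads was similar. There were 0.287, 0.294, 0.354 and 0.417 alpha reads per beta read in WT 1 to WT 4 and 0.344, 0.289 and 0.282 in Srp72+/- 1 to Srp72+/- 3. The ratio was highest in WT 4 and lowest in Srp72+/- 3, and WT 2, with the most globin, lay beside WT 1, with the least. On the log2 scale the means were -1.58 ± 0.25 (SD, n = 4) and -1.72 ± 0.16 (SD, n = 3). The difference of -0.14 was smaller than the spread within WT (two-sided exact permutation test, p = 0.429, where 4 libraries against 3 allow no p below 0.0286).

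Hbb-bs took 84.9%, 87.8%, 82.1% and 87.6% of the beta globin reads in WT 1 to WT 4 and 88.1%, 86.4% and 87.0% in Srp72+/- 1 to Srp72+/- 3. The 95% Wilson intervals were 83.1% to 86.6% in WT 1 and 80.4% to 83.7% in WT 3, the libraries with the fewest globin reads, and 87.6% to 88.1% in WT 2. They cover counting error only, as reads from amplified cDNA are not independent molecules. The means were 85.6% ± 2.7 (SD, n = 4) and 87.2% ± 0.9 (SD, n = 3), a difference of 1.55 percentage points that was smaller than the spread within WT (two-sided exact permutation test, p = 0.429).

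Within coding sequence, the division of reads between copies rests on few bases. The untranslated parts of the coding transcripts were not compared here. In the annotated transcripts, the coding sequences of Hbb-bs and Hbb-bt (441 bases each) differed by 1 base, C417T, counted from 1 at the start codon with the Hbb-bs base first, and were 99.77% identical. Those of Hba-a1 and Hba-a2 (426 bases each) differed by C381T, with the Hba-a1 base first. The stretches around these bases are shown because reads that lie only in coding sequence tell the copies apart at no other place. Capitals mark the differing base. They are written 5′ to 3′ on the coding strand and lie at chr7:103826672-103826712 and chr7:103812663-103812703 (minus strand) and at chr11:32284323-32284363 and chr11:32297140-32297180 (plus strand) on GRCm38.
Hbb-bs: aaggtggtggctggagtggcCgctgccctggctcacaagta
Hbb-bt: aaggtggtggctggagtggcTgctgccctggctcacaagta
Hba-a1: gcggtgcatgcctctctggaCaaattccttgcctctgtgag
Hba-a2: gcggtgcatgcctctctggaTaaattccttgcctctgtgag

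Globin reads were also assigned to transcripts that keep part of an intron. Of the reads on Hbb-bs, 43.2%, 40.6%, 43.5% and 40.2% in WT 1 to WT 4 and 40.7%, 42.8% and 42.7% in Srp72+/- 1 to Srp72+/- 3 were assigned to its annotated retained-intron transcript. That transcript is 344 bases long, and all but 55 of these bases (16.0%) also lie in exons of the main coding transcript. The share therefore varied by only a few points across libraries that differed greatly in globin level. Hbb-bt has no annotated transcript of this kind, and the Hbb-bs share of beta globin reads above includes the reads assigned to the Hbb-bs one. How far that share depends on this was not tested. The junction is shown because the 55 intron bases in lower case are what sets this transcript apart from the coding one, with the first 30 bases of the exon in capitals (chr7:103827641-103827725, minus strand, GRCm38).
Hbb-bs retained-intron transcript: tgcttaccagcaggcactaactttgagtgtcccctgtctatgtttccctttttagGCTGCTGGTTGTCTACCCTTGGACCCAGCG

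For alpha globin the division was one-sided. The retained-intron transcript of Hba-a1 (494 bases, of which 113 lie outside the exons of the coding transcript) held between 18.4% (WT 2) and 26.2% (Srp72+/- 2) of the alpha reads. The coding transcript of Hba-a1 held 0 reads in WT 1, WT 3 and Srp72+/- 3 and at most 307 (Srp72+/- 1). The matching transcript of Hba-a2 is also 494 bases long, differs from it by C399T (counted from its first base, the Hba-a1 base first) and held 0 reads in each of the 7 libraries. The level given for Hba-a1 is thus 94.1% to 100% the level of its intron-keeping transcript, and the sum of both alpha genes is the safer quantity.

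**Figure D3:**
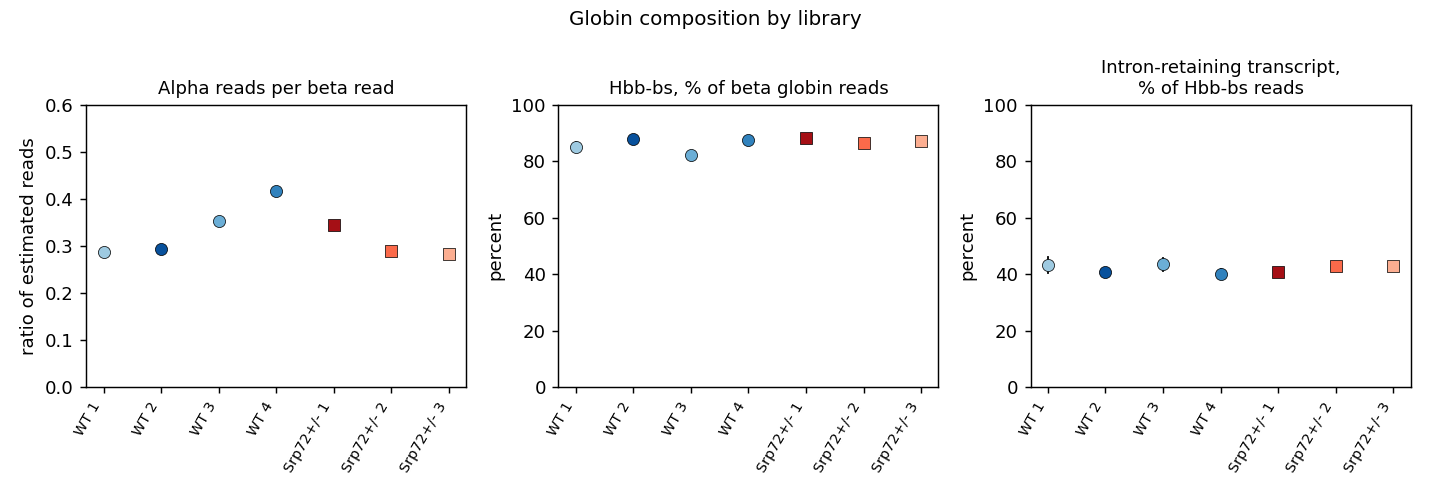
Alpha reads per beta read, Hbb-bs as a percent of beta globin reads and the retained-intron transcript as a percent of Hbb-bs reads, in each library. Vertical lines are 95% Wilson intervals, many smaller than the symbol. The share of Hbb-bs stays between 82.1% and 88.1% and that of the intron-keeping transcript between 40.2% and 43.5% in all 7 libraries.

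The regulators and the receptor differed from the globins. Gata1, the zinc finger factor needed for erythroid and megakaryocytic maturation (chromosome X, 7959260 to 7978071, minus strand), measured 8.41, 18.2, 12.7 and 5.26 CPM in the WT libraries, against 33.4, 6.92 and 23.1 CPM in the Srp72+/- ones. Both Srp72+/- 1 and Srp72+/- 3 lay above all WT libraries, and Srp72+/- 2 lay below 3 of them. The log2 fold change was 0.93 (SE 0.59; edgeR, unadjusted p = 0.151), 1.27 (SE 0.57) without WT 2 0.41 (SE 0.65) without Srp72+/- 1 and 0.78 without both. Klf1, which activates adult beta globin (chromosome 8, 84901928 to 84905291, plus strand), measured 2.69, 23.9, 1.63 and 3.06 CPM in the WT libraries, against 14.0, 4.11 and 1.58 CPM in the Srp72+/- ones. WT 2 and Srp72+/- 1 were again the highest of their groups, over a smaller range than in the globins, and its log2 fold change was -0.25 (SE 1.08; edgeR, unadjusted p = 0.821), 1.42 without WT 2, -1.50 without Srp72+/- 1 and 0.20 without both.

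Epor encodes the erythropoietin receptor (chromosome 9, 21958897 to 21963506, minus strand) and had the smallest unadjusted p of the 33 members with all libraries. It measured 6.44, 10.4, 4.03 and 4.45 CPM in the WT libraries, against 20.3, 7.68 and 31.8 CPM in the Srp72+/- ones. Srp72+/- 1 and Srp72+/- 3 lay above all WT libraries, and Srp72+/- 2 lay above all but WT 2. The means were 6.34 ± 2.92 CPM (SD, n = 4) and 19.9 ± 12.1 CPM (SD, n = 3), a log2 fold change of 1.65 with an SE of 0.54 (edgeR, unadjusted p = 0.0151, adjusted p = 0.9998). It was 2.01 (SE 0.52, unadjusted p = 0.00379) without WT 2, 1.62 (SE 0.65, unadjusted p = 0.0400) without Srp72+/- 1 and 1.99 (SE 0.59, unadjusted p = 0.00962) without both. Without Srp72+/- 3, its highest library, it was 1.14 (edgeR, unadjusted p = 0.0871). Epor did not pass the FDR in any of these fits.

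Relative to Klf1, Srp72+/- 3 had an unusual balance of these genes. There were 20.2 Epor reads per Klf1 read in Srp72+/- 3 and between 0.436 (WT 2) and 2.47 (WT 3) in the other 6 libraries. Gata1 reads per Klf1 read were 14.6 in Srp72+/- 3 and between 0.759 (WT 2) and 7.76 (WT 3) in the others. The Klf1 values below these ratios were low, with Klf1 at 1.58 CPM in Srp72+/- 3. Srp72+/- 3 was also the highest library in megakaryocyte markers, at 1427 CPM, and the part of these cells in the Gata1 and Epor values was not tested.

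**Figure D4:**
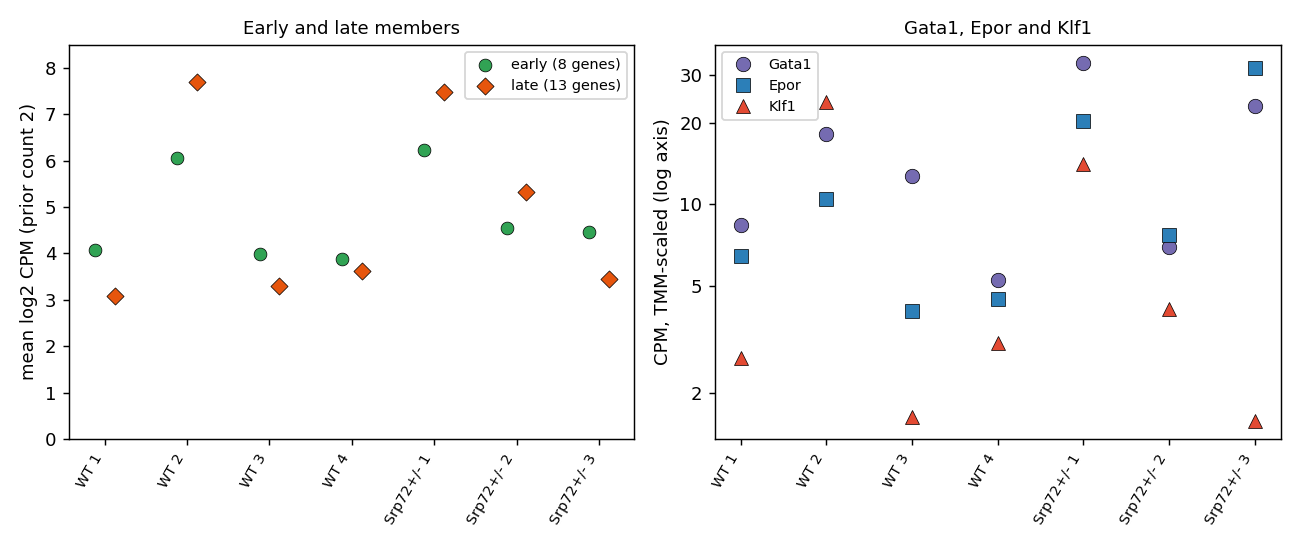
Left, mean log2 CPM (prior count 2) of the 8 early and 13 late members in each library. Late members lie above early ones in WT 2, Srp72+/- 1 and Srp72+/- 2 and below in the other 4. Right, CPM (log axis) of Gata1, Epor and Klf1, where Epor and Gata1 lie far above Klf1 in Srp72+/- 3.

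Heme synthesis genes had smaller ranges, apart from the first. Alas2, the erythroid first enzyme of the pathway (chromosome X, 150547375 to 150570638, plus strand), measured 4.71, 98.9, 5.90 and 2.79 CPM in the WT libraries, against 95.1, 20.9 and 9.76 CPM in the Srp72+/- ones. All 3 Srp72+/- libraries lay above WT 1, WT 3 and WT 4, and all lay below WT 2. Its log2 fold change was 0.58 (SE 1.30; edgeR, unadjusted p = 0.669) with all libraries, 3.23 (SE 0.83, unadjusted p = 0.00491) without WT 2, -0.91 (SE 1.49) without Srp72+/- 1 and 1.78 (SE 0.52, unadjusted p = 0.00845) without both. Fech, the ferrochelatase (chromosome 18, 64452914 to 64490251, minus strand), measured 16.6, 132, 16.4 and 30.2 CPM in the WT libraries, against 89.9, 33.5 and 12.6 CPM in the Srp72+/- ones. Its log2 fold change was -0.10 (SE 0.88), 1.11 without WT 2, -1.11 without Srp72+/- 1 and 0.12 without both.

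The 5 enzymes between them are Alad, Urod, Uros, Cpox and Ppox, which condense, close, trim and oxidise the ring on the way to heme. Their highest WT library was between 2.67 (Alad) and 6.26 (Cpox) times the lowest, against 35.5 times for Alas2. Log2 fold changes with all libraries were 0.57 for Alad, 0.30 for Uros, 0.29 for Ppox, 0.03 for Urod and -0.05 for Cpox. Without WT 2 all 7 genes of the pathway had higher fitted values in Srp72+/- and 1 (Alas2) reached an unadjusted p below 0.05, and without Srp72+/- 1 all 7 had lower ones. Without both, 6 were higher and 1 (Urod) lower, with Alas2 again at an unadjusted p below 0.05. Reads on Urod and Ppox lay mostly on retained-intron transcripts, at 61.6% to 84.7% for Urod and 60.4% to 94.9% for Ppox over the 7 libraries, so their gene sums are mainly not spliced coding RNA as assigned. Blvrb, which reduces biliverdin after heme breakdown, had 7.90 to 50.8 CPM in WT mice, against 14.9 to 46.2 CPM in Srp72+/- mice, with a log2 fold change of 0.24, which was 1.05 without WT 2, -0.48 without Srp72+/- 1 and 0.35 without both.

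Iron uptake genes were well expressed in all libraries and higher still in the leading pair. Tfrc (chromosome 16, 32608920 to 32632794, plus strand) measured 54.1, 468, 61.7 and 83.6 CPM in the WT libraries, against 364, 95.6 and 81.4 CPM in the Srp72+/- ones. Slc25a37 (chromosome 14, 69241848 to 69285112, minus strand) measured 65.8, 499.9, 82.9 and 93.4 CPM in the WT libraries, against 355, 139 and 98.4 CPM in the Srp72+/- ones. For Slc25a37 all Srp72+/- libraries lay above WT 1, WT 3 and WT 4 and below WT 2, while for Tfrc Srp72+/- 3 lay below WT 4. Log2 fold changes were 0.11 (SE 0.87) for Tfrc and 0.09 (SE 0.78) for Slc25a37, and without WT 2 they were 1.44 (SE 0.56, edgeR unadjusted p = 0.0325) and 1.29 (SE 0.44, unadjusted p = 0.0169). Without Srp72+/- 1 both turned, to -0.95 for Tfrc and -0.68 for Slc25a37. Without both libraries they were 0.41 (edgeR, unadjusted p = 0.158) and 0.55 (unadjusted p = 0.0678). Slc25a38, which carries glycine into the mitochondrion for heme synthesis, measured 3.96 to 27.8 CPM in the WT libraries, against 7.59 to 28.2 CPM in the Srp72+/- ones. Tspo2, an erythroid membrane protein of the translocator family, was near the floor of 3 reads in Srp72+/- 3 (0.182 CPM) and at 20.5 CPM in WT 2. The log2 fold changes were 0.26 for Slc25a38 and 0.36 for Tspo2 with all libraries, 1.06 and 3.51 without WT 2, -0.65 and -1.85 without Srp72+/- 1, and 0.17 and 1.34 without both.

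The red cell membrane genes mostly spanned wide ranges, with Aqp1 and Epb41 as exceptions. At the median of these genes the highest WT library was 30.6 times the lowest, against 65.3 times at the median of the globins. Slc4a1, the band 3 anion exchanger (chromosome 11, 102348824 to 102366203, minus strand), measured 14.96, 929, 12.2 and 39.5 CPM in the WT libraries, against 727, 127 and 12.7 CPM in the Srp72+/- ones. Its highest WT library was 76.3 times its lowest, and its log2 fold change was 0.21 (SE 1.67), 3.71 (SE 1.48, edgeR unadjusted p = 0.0505) without WT 2 -1.88 (SE 1.99) without Srp72+/- 1 and 1.64 without both. There were between 4.70 and 6.83 Hbb-bs reads per Slc4a1 read in 6 libraries and 10.2 in Srp72+/- 3, while Hbb-bs reads per Klf1 read ran from 27.5 (WT 1) to 249 (Srp72+/- 1). Over these libraries Hbb-bs thus kept closer proportion to Slc4a1 than to Klf1.

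Sptb and Ank1 encode beta spectrin and the ankyrin that ties it to band 3, and Epb42 encodes protein 4.2. Rhd and Rhag encode the Rh proteins, Ermap an erythroblast membrane protein and Cldn13 a claudin. These 7 genes had log2 fold changes between 0.28 (Sptb) and 0.91 (Rhd) with all libraries and between 2.61 (Rhag) and 5.09 (Rhd) without WT 2, where each reached an unadjusted edgeR p below 0.05 (0.00469 for Epb42, 0.00537 for Rhd, 0.0486 for Ank1). Without Srp72+/- 1 all 7 were negative, between -1.39 (Ank1) and -0.73 (Epb42). Without both they were between 1.06 (Rhag) and 3.36 (Rhd), and Epb42, Rhd and Ermap reached an unadjusted edgeR p below 0.05. Rhd had 2 reads in WT 1, below the floor of 3 reads, so no ratio to that library is given and its fitted value without WT 2 depends on few reads. Epb41, the protein 4.1 gene also used outside the red cell, was level at 152 to 220.1 CPM in the WT libraries, against 169 to 257 CPM in the Srp72+/- ones, and its log2 fold change was 0.05 (SE 0.24).

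Aqp1, the water channel of red cells and vessel walls (chromosome 6, 55336432 to 55348555, plus strand), measured 19.2, 78.0, 14.6 and 18.0 CPM in the WT libraries, against 95.0, 25.2 and 41.5 CPM in the Srp72+/- ones. All Srp72+/- libraries lay above WT 1, WT 3 and WT 4, and Srp72+/- 1 also lay above WT 2. The log2 fold change was 0.73 (SE 0.68; edgeR, unadjusted p = 0.312), 1.65 (SE 0.45, unadjusted p = 0.00512) without WT 2, 0.01 (SE 0.74) without Srp72+/- 1 and 0.95 (SE 0.33, unadjusted p = 0.0189) without both.

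The other enzymes did not behave alike. Car1, a carbonic anhydrase of erythroid progenitors and red cells (chromosome 3, 14766216 to 14808368, minus strand), measured 10.9, 133, 12.2 and 5.26 CPM in the WT libraries, against 138, 22.2 and 3.64 CPM in the Srp72+/- ones. Its neighbour Car2 (chromosome 3, 14886273 to 14900770, plus strand), a carbonic anhydrase with wide expression, measured 466, 355, 241 and 266 CPM in the WT libraries, against 469, 428 and 239 CPM in the Srp72+/- ones. Car1 was thus high in WT 2 and Srp72+/- 1 alone, and Car2 stayed within a factor of 1.94 in WT and 1.97 in Srp72+/-. The log2 fold changes were 0.44 (SE 1.34) for Car1 and 0.19 (SE 0.33) for Car2. That of Car1 was 2.54 without WT 2, -1.69 without Srp72+/- 1 and 0.45 without both, and that of Car2 was 0.23, -0.016 and 0.039.

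Bpgm makes the 2,3-bisphosphoglycerate that lowers the oxygen affinity of haemoglobin (chromosome 6, 34476207 to 34505613, plus strand). It measured 12.4, 29.3, 18.8 and 26.8 CPM in the WT libraries, against 33.5, 10.8 and 8.92 CPM in the Srp72+/- ones. Srp72+/- 2 and Srp72+/- 3 lay below all WT libraries and Srp72+/- 1 above all of them. Its log2 fold change was -0.30 (SE 0.53), and without Srp72+/- 1 it was -1.17 (SE 0.45; edgeR, unadjusted p = 0.0342, adjusted p = 0.9999). It was -0.13 without WT 2 and -0.98 without both (unadjusted p = 0.0460). Hemgn measured 22.3 to 211 CPM in the WT libraries, against 41.5 to 187 CPM in the Srp72+/- ones, with a log2 fold change of 0.28, which was 1.52 without WT 2, -0.73 without Srp72+/- 1 and 0.53 without both.

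To set early against late genes, 8 members that are used from the progenitor stage (Gata1, Klf1, Epor, Aqp1, Car1, Car2, Tfrc, Blvrb) were averaged, as were 13 used in haemoglobin-filling cells. The late genes were the 4 globins, Alas2, Slc4a1, Epb42, Bpgm, Tspo2, Hemgn, Slc25a37, Rhd and Rhag. The mean log2 CPM of the early genes was 4.08, 6.07, 3.99 and 3.89 in WT 1 to WT 4 and 6.23, 4.56 and 4.46 in Srp72+/- 1 to Srp72+/- 3. That of the late genes was 3.08, 7.69, 3.29 and 3.62 in WT and 7.49, 5.32 and 3.45 in Srp72+/-. Late minus early was -1.002, 1.63, -0.70 and -0.27 in WT and 1.26, 0.77 and -1.01 in Srp72+/-. It was positive in WT 2, Srp72+/- 1 and Srp72+/- 2 and negative in the other 4. Over mice the means were -0.09 ± 1.18 (SD, n = 4) and 0.34 ± 1.19 (SD, n = 3), a difference of 0.43 that was smaller than either SD. The difference was 0.998 without WT 2, -0.03 without Srp72+/- 1, 0.54 without both and 1.10 without Srp72+/- 3. Leaving out WT 1 gave 0.12, leaving out Srp72+/- 2 gave 0.21 and leaving out WT 3 gave 0.22. Among single genes the highest WT library was 5.89 times the lowest at the median of the early members and 35.6 times at the median of the 12 late members for which it could be given.

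Promoters are shown for 5 members, 3 that were high in WT 2 and Srp72+/- 1 and the factors Klf1 and Gata1, from RefSeq windows on GRCm38.p6 that start 250 bases before the gene's start. Bases inside an annotated exon were left out. Windows were given for 26 of the 33 members. Capitals mark matches to a GATA motif (AGATAA or TGATAA, either strand, read as TTATCT or TTATCA on the other strand) and to a CACCC motif (CCNCNCCC, either strand), the letters that GATA1 and KLF1 are known to bind. In the Hbb-bs and Alas2 windows, CACCC matches that lie in the part left out are not shown.
Hbb-bs (chr7:103828097-103828178, minus strand): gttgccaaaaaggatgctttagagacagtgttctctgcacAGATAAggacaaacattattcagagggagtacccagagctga
Hba-a2 (chr11:32296242-32296488, plus strand): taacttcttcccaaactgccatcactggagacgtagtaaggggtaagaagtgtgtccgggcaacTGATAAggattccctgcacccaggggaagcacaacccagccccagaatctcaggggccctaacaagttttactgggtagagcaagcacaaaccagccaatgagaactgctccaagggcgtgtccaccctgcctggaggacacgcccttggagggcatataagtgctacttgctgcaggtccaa
Alas2 (chrX:150547167-150547374, plus strand): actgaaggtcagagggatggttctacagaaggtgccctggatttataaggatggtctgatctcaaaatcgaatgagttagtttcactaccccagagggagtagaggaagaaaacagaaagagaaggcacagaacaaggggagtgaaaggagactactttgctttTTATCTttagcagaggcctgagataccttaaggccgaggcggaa
Klf1 (chr8:84901732-84901927, plus strand): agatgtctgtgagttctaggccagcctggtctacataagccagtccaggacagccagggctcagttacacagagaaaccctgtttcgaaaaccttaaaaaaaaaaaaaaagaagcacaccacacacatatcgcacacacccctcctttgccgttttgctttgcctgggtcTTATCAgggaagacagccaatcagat
Gata1 (chrX:7967911-7968160, minus strand): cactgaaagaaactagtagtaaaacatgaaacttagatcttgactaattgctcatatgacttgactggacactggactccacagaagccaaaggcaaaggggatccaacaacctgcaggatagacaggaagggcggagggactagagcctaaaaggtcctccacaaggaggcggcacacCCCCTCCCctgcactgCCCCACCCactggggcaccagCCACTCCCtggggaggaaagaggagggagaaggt

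Over the full 250 bases, 13 of the 32 member windows (40.6%) held a GATA match, against 16.6% of 32851 windows of all genes. These 13 windows belong to 13 genes, the alpha globin pair, Hbb-bs, Alas2, Klf1, Epor, Cpox, Uros, Epb42, Ermap, Rhag, Rhd and Hemgn. A CACCC match was in 19 windows (59.4%), against 45.9% of all windows. Gata1 and Hbb-bt were among the members with no GATA match in this window. By gene, 16 of the 26 with a window had a CACCC match. Those without were Hba-a1, Hba-a2, Klf1, Cpox, Epb42, Ermap, Ppox, Rhag, Rhd and Urod. The matches are letters in a window and say nothing of binding.

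Other genes of the erythroid and heme programme gave the same picture in part. Of 51 listed, 46 were tested and 0 passed, with 0 at an unadjusted edgeR p below 0.05, 32 higher and 14 lower and a median of 0.12. Without WT 2, 8 of 45 were higher and 0 lower at an unadjusted p below 0.05 (2.61% and 2.23% of all genes), with a median of 0.28. Without Srp72+/- 1, 0 were higher and 1 lower at that level (1.15% and 0.887% of all genes), 26 of 46 were fitted lower and the median was -0.20. Without both, 3 of 45 were higher and 0 lower (2.11% and 1.92% of all genes), with a median of 0.19. Of the 8 without WT 2, Steap3 (the ferrireductase of erythroid endosomes) had a log2 fold change of 1.47 (SE 0.44) and Dmtn (the skeletal protein dematin) one of 2.75 (SE 0.87). With all libraries these were 0.60 for Steap3 and 0.20 for Dmtn, without Srp72+/- 1 they were 0.46 and -1.38, and without both 1.35 and 1.20. With all libraries the smallest unadjusted p belonged to Slc11a2 (an iron transporter), at 14.9, 26.0, 11.5 and 16.7 CPM in the WT libraries, against 48.7, 21.7 and 18.9 CPM in the Srp72+/- ones (log2 fold change 0.79, SE 0.42; edgeR, unadjusted p = 0.0998). Its log2 fold change was 1.06 without WT 2, 0.21 without Srp72+/- 1 and 0.50 without both.

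Most of the transcription factors that erythroid cells share with stem cells did not have this library order. Of the 11 listed, 10 were fitted higher and 1 lower in Srp72+/- (median 0.11), and 0 reached an unadjusted edgeR p below 0.05 with or without WT 2. The 3 with the smallest unadjusted p were Gfi1b, Tal1 and Zbtb7a. Gfi1b, a repressor of the erythroid and megakaryocytic lineages, measured 73.6, 29.4, 51.3 and 32.3 CPM in the WT libraries, against 54.0, 35.1 and 131 CPM in the Srp72+/- ones. Tal1 measured 163, 85.9, 142 and 163 CPM in the WT libraries, against 126, 171 and 226 CPM in the Srp72+/- ones. Both were lowest in WT 2 among WT and highest in Srp72+/- 3. Sox6, named after its values were seen, was an exception, highest in WT 2 (100.4 CPM) and Srp72+/- 1 (88.0 CPM) within its groups. Zbtb7a, a repressor of fetal globin, was at 86.4 to 97.9 CPM in the WT libraries, against 58.5 to 94.1 CPM in the Srp72+/- ones. Of the 6 embryonic and minor globin genes only Hbq1b was tested, at 5.05 CPM (WT 2), 7.84 CPM (Srp72+/- 1) and below 1 CPM elsewhere, and Hbb-y, Hbb-bh1, Hbb-bh2, Hba-x and Hbq1a were at or below 0.576 CPM in each library.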

How the data were processed

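Sorted cells went into lysis buffer, and their RNA was isolated on columns, amplified by the Ovation RNA-seq system V2 and made into TruSeq V2 libraries, per the labels' protocols. The deposited tables give, per transcript, expected counts (estimated counts of reads) made by the authors with Salmon 0.12.0, per the submitters' processing notes, which also name mm10 and GRCm38.p6. The deposited TPM values served for levels between genes and for alternatives, and the deposited effective lengths for a length offset. The sources used here give no strand or bias settings. Division of reads between copies and transcripts was done by that tool.

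Of 136288 transcripts, 136176 matched GENCODE M21 (GRCm38), and the rest held 0.0413% to 0.0622% of the reads. Counts were summed per gene, rounded, filtered (filterByExpr, minimum count 10, minimum total 15), scaled by TMM and tested with edgeR 4.0.16 in R 4.3.3 (quasi-likelihood, robust, no covariate), on 4 WT and 3 Srp72+/- libraries placed by title and genotype label. CPM values use the same scaling, and 3 reads, the floor, equal 0.091 to 0.192 CPM. Log2 CPM used a prior count of 2. Ratios were tested by two-sided exact permutation over 35 splits. The biological coefficient of variation was 0.628. The procedure was run on simulated data with large known changes, a smaller spread than here and no library that stood apart. How it performs at the spread of these data was not tested. Replicate numbers did not pair the mice, so no block was used. Alternatives were DESeq2 1.42.0, voom with quality weights in limma 3.58.1, other scalings and filters, and left-out libraries. The members, the gene lists, the early and late sets and the choice of left-out libraries were made with earlier results of these data known. All members are accounted for. The globins and 11 leading members are given in every library, with any member of unadjusted p below 0.05 with all libraries or whose groups did not overlap, and Bpgm was added after its values were seen. From each other list the 3 genes with the smallest unadjusted p could be named. Promoter windows are those of RefSeq.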

Additional observations from a re-analysis of the deposited data

Results flagged for a closer look

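In 4 WT libraries, WT 2 was far from the other 3 for 3 members and for 2 library means, by Dixon's ratio above its 95% critical value (33 members, on log2 CPM with 0.1 added, and 7 library measures were tried, and chance gives about 1 in 20 groups). Aqp1 was at 78.0 CPM in WT 2 and at 14.6 to 19.2 CPM in the other WT libraries. Ermap was at 172 CPM against 4.76 to 8.59 CPM. Tspo2 was at 20.5 CPM against 0.576 to 0.729 CPM. The mean log2 CPM of the early members was 6.07 in WT 2 against 3.89 to 4.08, and that of the late members 7.69 against 3.08 to 3.62. The members and both sets were listed with the high values of WT 2 known. These ratios are therefore descriptions, and the 1 in 20 does not measure chance for WT 2. In the same library the 12 stem cell genes were low in sum (166 CPM) and the neutrophil genes high (40048 CPM), and their part in these values was not tested. The 3 Srp72+/- libraries are too few for this test.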

How the results depend on the processing

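The count of 0 members past the FDR held under every alternative run. Over all genes 9 passed with DESeq2 and 0 or 1 when each library was left out in turn. The median log2 fold change of the members did not hold: it was 1.14 with voom and sample quality weights, 0.78 without WT 2 and Srp72+/- 1, and between -0.91 (without Srp72+/- 1) and 1.65 (without WT 2) when each library was left out. It was between 0.23 and 0.35 under the other scalings, filters and tests. At an unadjusted p below 0.05 there was 1 member in edgeR with all libraries, where 1.8% of all genes reached that level. There was 1 with DESeq2 and there were 10 with voom. The share of all genes at that level was not taken for these 2 methods. Whether their counts exceed that of all genes is therefore not known here. The signs of single genes turned as follows. Klf1 was at 0.89 with voom and 0.20 without both libraries. Cpox was at 0.021 with upper quartile scaling, 0.67 with voom, 0.28 with a length offset and 0.18 without both. Fech was at 0.80 with voom and 0.12 without both. Urod was at -0.0047 with RLE scaling, -0.0046 with DESeq2, -0.013 with voom and -0.024 without both. With the length offset Slc25a38 was at -0.086, Epb41 at -0.15 and Tfrc at -0.020, and without both Epb41 was at -0.19.

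The replicate numbers were shared by name only, as the correlations of same-numbered deviations were -0.32, -0.16 and 0.0018. With the replicate number as a block, 0 members and 0 genes passed, 0 members had an unadjusted p below 0.05 and the median was 0.31, with Car1 at -0.71, Urod at -0.037, Slc25a38 at -0.075 and Tspo2 at -0.54. When each library was left out in turn, the sign of 30 of the 33 members turned at least once, and Gata1, Epor and Aqp1 were the exceptions. The ranges of log2 fold change were: Hbb-bs -1.80 to 3.65, Hbb-bt -1.65 to 3.37, Hba-a1 -1.44 to 3.57, Hba-a2 -1.96 to 3.41, Klf1 -1.50 to 1.42, Car1 -1.69 to 2.54, Car2 -0.016 to 0.43, Alas2 -0.91 to 3.23, Alad -0.25 to 0.95, Uros -0.65 to 0.95, Urod -0.25 to 0.31, Cpox -0.82 to 0.93, Ppox -0.028 to 0.79, Fech -1.11 to 1.11, Slc25a37 -0.68 to 1.29, Slc25a38 -0.65 to 1.06, Slc4a1 -1.88 to 3.71, Sptb -1.19 to 2.74, Ank1 -1.39 to 3.47, Epb42 -0.73 to 3.11, Epb41 -0.19 to 0.15, Rhd -0.87 to 5.09, Rhag -1.20 to 2.61, Ermap -1.32 to 3.78, Tfrc -0.95 to 1.44, Bpgm -1.17 to 0.011, Hemgn -0.73 to 1.52, Blvrb -0.48 to 1.05, Tspo2 -1.85 to 3.51, Cldn13 -0.94 to 2.71. The turns were most frequent without Srp72+/- 1 (26 members) and rarest without Srp72+/- 2 (2) and WT 2 (3). The alpha to beta difference ranged from -0.23 to -0.03 and the Hbb-bs share difference from 0.37 to 2.29 points, with no exact permutation p below the threshold. The late minus early difference ranged from -0.03 to 1.10. Klf1, Rhd, Tspo2 and Cldn13, with a few CPM in most libraries, are limited by depth as well as by the spread between mice.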

Other observations

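Globin genes were not alone in having reads on transcripts with a retained intron. The transcript with the most reads was protein-coding for 27 members and a retained-intron transcript for 4 (Hba-a1, Urod, Ppox and Tspo2). For Ermap it was one annotated for nonsense-mediated decay, and for Epb42 a processed transcript, a non-coding class. Non-coding transcripts held 50.7% to 91.3% of the Epb42 reads over the libraries, so its gene sum is mainly not coding RNA as assigned. In 7 members, retained-intron transcripts held more than 10% of the reads in every library. For Slc25a37 this share was 44.3%, 18.7%, 24.2% and 22.4% in WT 1 to WT 4 and 28.4%, 21.6% and 19.3% in Srp72+/- 1 to Srp72+/- 3, so it was highest in WT 1, which has the lowest Slc25a37 level. For Cpox it was 15.2%, 12.5%, 22.4% and 13.3% in WT and 21.9%, 23.5% and 46.6% in Srp72+/-, highest in Srp72+/- 3. Fech, Klf1, Aqp1 and Hbb-bt have a single annotated transcript, so for them this division does not arise.

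Bnip3l, a mitophagy receptor used when reticulocytes lose their mitochondria, had groups that did not overlap, at 113, 135, 124 and 116 CPM in the WT libraries, against 112, 99.4 and 112 CPM in the Srp72+/- ones, as 3.57% of all tested genes did. Its log2 fold change was -0.18 (SE 0.18; edgeR, unadjusted p = 0.356), and it was picked from the list after its values were seen.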
